A study of Bos taurus with 4 samples.

Results

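The genes described here are 32 leukocyte markers, chosen by symbol, in granulosa cell pools from cows. The platform's annotation pairs 37 probes with 30 of them, of 43794 probes in all, and gives no probe for CD52 or MRC1. Granulosa cells line the ovarian follicle and support the oocyte. They came from 94 Holstein cows of a commercial embryo production facility, aspirated after ovarian stimulation and a coasting interval. The tested donors were cows rated poor, whose oocytes were mostly incompetent to develop, and they were set against cows rated good, whose oocytes were mostly competent. Poor-donor pools 5, 6, 7 and 8 and good-donor pools 1, 2, 3 and 4 were compared on 4 arrays, each holding 1 pool of each kind in 2 dyes. Arrays 1 and 2 set poor-donor pools 5 and 6, labelled with Cy3, against good-donor pools 1 and 2, labelled with Cy5. On arrays 3 and 4 the dyes were exchanged, with poor-donor pools 7 and 8 in Cy5 and good-donor pools 3 and 4 in Cy3. The labels do not say how many cows entered a pool or which, so p-values measure only the spread between these pools. All pools share breed, stimulation and 2 rounds of linear RNA amplification.

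Leukocytes are the white cells of blood and tissues. In the ovary they lie mainly in the theca and stroma outside the follicle's basement membrane and in blood vessels, and they become more numerous around ovulation and in regressing follicles. An aspirate of follicular fluid can therefore hold leukocytes beside granulosa cells. The markers fall into 5 groups by role. The pan-leukocyte genes PTPRC, ITGB2, CD53, CD48, LAPTM5, CORO1A, CD52 and LCP1 are shared by most white cells. The macrophage and monocyte genes encode surface receptors (CD14, CD163, CSF1R, MRC1, ITGAM), adaptors of activating receptors (TYROBP, FCER1G), complement component C1q (C1QA, C1QB, C1QC), proteins of the lysosome and the oxidative burst (CD68, LYZ, CYBB), the actin-binding AIF1 and the transcription factor SPI1. CD3E, CD3D and CD2 mark T cells, and S100A8, S100A9 and S100A12 are abundant in neutrophils. TLR2, TLR4 and CD44 also occur in granulosa and cumulus cells and were kept apart.

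Levels are given as log2 intensity after normalisation, minus the median of the 153 negative-control spots of the same pool, so that 0 is the level of the negative controls. Probes differ in how they bind, so a level was set only against the same gene in other pools. A probe counted as above background in a pool when it was brighter, before correction, than the negative-control mean of that array and dye plus 2 SD. Negative controls averaged 38.4 to 124 in the poor-donor pools and 43.1 to 94.9 in the good-donor pools, and between 64.3% and 72.7% of all probes were above background in a pool. The granulosa identity of the pools was checked with 12 markers, all tested. The FSH receptor gene FSHR stood at 3.90 to 4.61 in the poor-donor pools and 4.22 to 4.52 in the good-donor pools, and the aromatase gene CYP19A1 at 6.55 to 7.30 and 6.42 to 7.34. FOXL2, a transcription factor of granulosa cells, was nearer to the negative controls, at 0.10 to 0.68 and 0.49 to 0.63.

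Most leukocyte genes with a probe were above background in each pool. Of the 30 genes with a probe, 25, 27, 24 and 25 were above background in poor-donor pools 5, 6, 7 and 8, and 25, 24, 28 and 25 in good-donor pools 1, 2, 3 and 4. In all 8 pools 21 of the 30 were above background. That is 70%, close to the 65.2% of all genes on the array, so this count is not particular to leukocyte genes. The 21 comprised 5 of 7 pan-leukocyte genes, 10 of 14 macrophage and monocyte genes, the T cell gene CD3E, the neutrophil genes S100A8 and S100A9, and TLR2, TLR4 and CD44. ITGAM, the integrin alpha chain of macrophages and neutrophils, was above background in no pool, at -0.44 to -0.32 in poor donors and -0.40 to -0.17 in good donors. CSF1R, the receptor for the macrophage growth factor CSF1, was above background in 1 poor-donor pool and 2 good-donor pools, with its highest level, 0.55, in good-donor pool 3. The other dim genes were ITGB2, the beta chain shared by leukocyte integrins, in 1 poor-donor and 2 good-donor pools, LCP1, an actin-bundling protein, in 2 and 1, C1QA in 3 and 1, and S100A12 in 1 and 1. These 6 genes were not tested, and 24 of the 30 were, because each was measurable in the 4 poor-donor pools, the 4 good-donor pools or both. Passing this filter in 1 group alone applied to CYBB, CD3D and CD2.

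No leukocyte gene passed the test between poor and good donors. The test was limma with a dye term, fitted on 26181 probes with Benjamini-Hochberg adjustment, and the smallest adjusted p among the 24 genes was 0.830. With no adjustment, 0 of the 24 genes had a p under 0.05, where the share was 6.97% over all 10976 tested genes (3.08% higher and 3.89% lower in poor donors) and 5.96% over all tested probes. Past the adjusted threshold the share was 0%. A separate-channel fit in limma put 1 of the 24, CD3E, under an unadjusted 0.05, with an adjusted p of 0.395. The median difference was -0.04 over the 24 genes, with 10 higher and 14 lower in poor donors, and 0.001 over all tested genes, of which 49.7% were lower. By group the median was -0.02 for 5 pan-leukocyte genes, 0.06 for 11 macrophage and monocyte genes, -0.05 for 3 T cell genes, -0.29 for 2 neutrophil genes and -0.17 for the 3 shared genes. All are log2 differences, poor over good. The 95% interval of a difference reached to either side by a median of 0.41 over the 24 genes and by up to 1.53, for LYZ, so that a difference of 2-fold was within the interval for CD53 and LYZ. These intervals leave out what differed between arrays 1 and 2 and arrays 3 and 4, since the dye term takes it up.

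**Figure D1:**
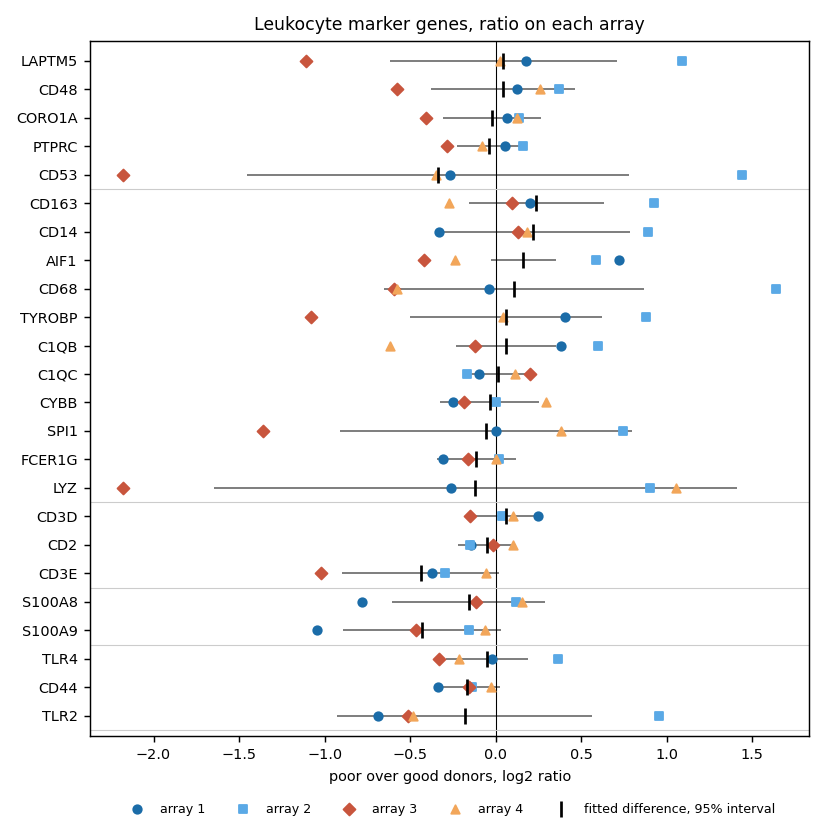
Log2 ratio of poor over good donors on each of the 4 arrays (coloured points) for the 24 tested leukocyte genes, grouped from top to bottom as pan-leukocyte, macrophage and monocyte, T cell, neutrophil and shared genes. The black tick and grey line are the fitted difference and its 95% interval; array 2 lies mostly right of 0 and array 3 mostly left of it, and only the intervals of CD3E, S100A9, AIF1 and CD44 come close to leaving 0 out.

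The single arrays differed far more than the donor groups. On array 2, poor-donor pool 6 against good-donor pool 2, 19 of 24 genes were higher in the poor-donor pool, against 51.8% of all tested genes, and the median ratio was 0.37. On array 3, poor-donor pool 7 against good-donor pool 3, 21 of 24 were lower in the poor-donor pool, against 49.4%, and the median was -0.37. Medians were -0.07 on array 1 and 0.01 on array 4. A ratio above 0.5 on array 2 was found for 11 of 24 genes, against 4.75% of all tested genes, and one below -0.5 on array 3 for 9 of 24, against 4.76%. For 7 genes both held. Ratios had the same sign on all 4 arrays for CD3E, S100A9 and CD44, all lower in poor donors, and for no gene higher, where the shares over all tested genes were 6.05% and 5.65%. The median over the 24 genes was 0.08, -0.12, 0.10 and -0.15 when array 1, 2, 3 or 4 was left out, so its sign turned with single arrays. That of the macrophage and monocyte genes was -0.09 without array 2, and that of the pan-leukocyte genes was 0.09 without array 1 and 0.12 without array 3. The neutrophil median ran between -0.07 without array 1 and -0.52 without array 2, and the T cell median between -0.023 without array 3 and -0.08 without array 4. With only probes above background in all 8 pools the T cell median was -0.44, since CD3E alone was left.

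Among pan-leukocyte genes, CD53, a tetraspanin of white cells, varied most. Its levels were 1.58, 2.44, 0.97 and 1.19 in poor-donor pools 5, 6, 7 and 8, against 1.86, 1.01, 3.17 and 1.56 in good-donor pools 1, 2, 3 and 4. Good-donor pool 3 was highest and poor-donor pool 7, its partner on array 3, was lowest, so the groups overlapped. Arrays 1 to 4 gave ratios of -0.26, 1.44, -2.18 and -0.35, which average -0.34 ± 1.48 (SD, n = 4; adjusted p = 0.934 by limma). Without array 1 the difference was 0.09 and without array 3 it was 0.12. The other CD53 probe, near the negative controls, gave -0.07.

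LAPTM5, a lysosomal membrane protein of blood cells, stood at 1.59, 2.24, 0.68 and 0.95 in poor-donor pools 5 to 8, against 1.42, 1.16, 1.81 and 0.95 in good-donor pools 1 to 4. Poor-donor pool 6 and good-donor pool 3 were the highest, and the groups overlapped. Its difference was 0.05 ± 0.90 (SD, n = 4; adjusted p = 0.988), and its other 2 probes gave 0.02 and 0.0092. One of these was also high in pool 6 and low in pool 7 against their partners, with ratios of 1.23 on array 2 and -1.03 on array 3. For the brightest LAPTM5 probe, whose levels are given above, the difference was -0.18 without array 2 and -0.24 without array 4.

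PTPRC, which encodes the pan-leukocyte phosphatase CD45, had 0.73, 0.74, 0.75 and 0.88 in poor-donor pools 5 to 8, against 0.68, 0.59, 1.05 and 0.98 in good-donor pools 1 to 4. It moved little: the highest Cy3 pool was 1.25-fold above the lowest and the highest Cy5 pool 1.22-fold. The difference was -0.04 ± 0.19 with an interval of -0.23 to 0.15 (adjusted p = 0.961), and its other probe was below background in all pools. CD48, a ligand of immune receptors, and CORO1A, an actin regulator, had 0.04 ± 0.43 and -0.02 ± 0.26 and were highest among the Cy3 pools in pool 3, at 0.94 and 0.76. Without array 3 PTPRC and CORO1A had 0.01 and 0.11, and CD48 had -0.02 without array 2 and -0.17 without array 4.

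**Figure D2:**
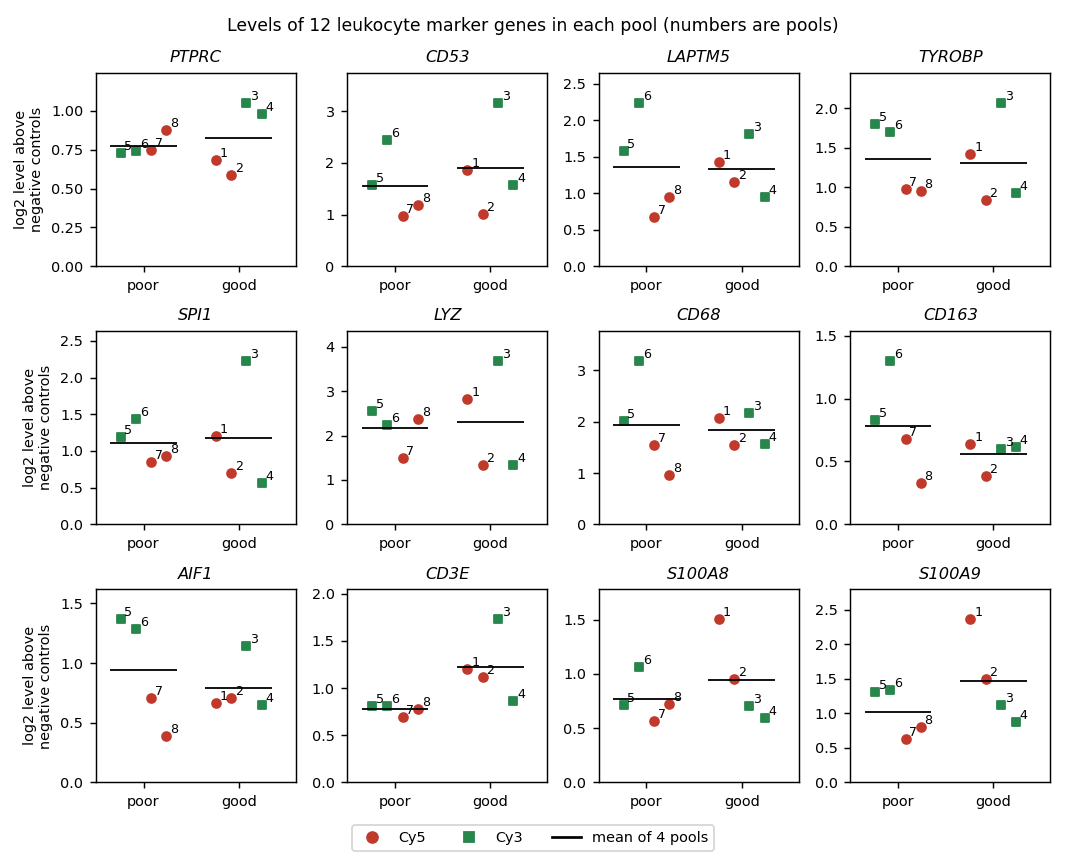
Levels of 12 leukocyte genes in each pool, as log2 above the negative controls of the same pool, with poor-donor pools left and good-donor pools right in each panel (numbers are pools, red circles Cy5, green squares Cy3, lines the mean of 4 pools). Good-donor pool 3 is the highest point for PTPRC, CD53, TYROBP, SPI1, LYZ and CD3E, and poor-donor pool 6 for LAPTM5, CD68 and CD163. Poor-donor pool 5 is the highest point for AIF1, and good-donor pool 1 for S100A8 and S100A9. The donor groups overlap in all panels except CD3E.

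Of the macrophage and monocyte genes, 7 were higher and 4 lower in poor donors, and none passed the test. LYZ, lysozyme, which breaks down bacterial cell walls, had 2.55, 2.24, 1.49 and 2.37 in poor-donor pools 5 to 8, against 2.83, 1.35, 3.68 and 1.33 in good-donor pools 1 to 4. Its range across the Cy3 pools, pool 3 over pool 4, was 5.12-fold, and both of these are good-donor pools. Arrays 1 to 4 gave ratios of -0.26, 0.90, -2.18 and 1.06, which average -0.12 ± 1.49 (SD, n = 4; adjusted p = 0.985). Without array 3 LYZ had 0.69, without array 1 it had 0.17, and without array 4 it had -0.93.

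SPI1, the transcription factor PU.1 of myeloid and B cells, was also highest in pool 3 and lowest in pool 4. It had 1.20, 1.44, 0.85 and 0.93 in poor-donor pools 5 to 8, against 1.21, 0.70, 2.23 and 0.57 in good-donor pools 1 to 4. Pool 3 was 3.16-fold above pool 4, and the difference between donors was -0.06 ± 0.92 (SD, n = 4; adjusted p = 0.988). TYROBP, the signalling adaptor DAP12, had 1.81, 1.71, 0.97 and 0.95 in the poor-donor pools, against 1.42, 0.84, 2.07 and 0.93 in the good-donor pools. Pool 3 was again the highest and pools 2 and 4, also of good donors, the lowest. Its difference was 0.06 ± 0.83 (adjusted p = 0.978). SPI1 had 0.13 without array 1 and 0.38 without array 3, and TYROBP had -0.06 without array 2 and -0.22 without array 4.

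The lysosomal glycoprotein gene CD68 was highest in another pool. It had 2.02, 3.19, 1.55 and 0.96 in poor-donor pools 5 to 8, against 2.07, 1.55, 2.17 and 1.56 in good-donor pools 1 to 4. Poor-donor pool 6 was the highest of the 8 and poor-donor pool 8 the lowest, so the poor-donor pools spanned the good-donor pools. CD163, the scavenger receptor for haemoglobin bound to haptoglobin, also peaked in pool 6, with 0.83, 1.30, 0.68 and 0.33 in poor donors, against 0.64, 0.38, 0.60 and 0.62 in good donors. CD14, the co-receptor for bacterial lipopolysaccharide, had 0.89, 1.21, 0.50 and 0.67 in poor donors, against 1.23, 0.33, 0.39 and 0.51 in good donors. Its highest levels were in good-donor pool 1 and poor-donor pool 6, and good-donor pool 3 was among its lowest. Differences were 0.11 ± 1.05 for CD68, 0.24 ± 0.50 for CD163 and 0.22 ± 0.51 for CD14 (SD, n = 4; adjusted p = 0.973, 0.854 and 0.915). Without array 2 these were -0.31, 0.06 and -0.09, and without array 1 they were 0.53, 0.42 and 0.52.

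AIF1, an actin-binding protein of activated macrophages, had the smallest p of this group. Its levels were 1.37, 1.28, 0.71 and 0.39 in poor-donor pools 5 to 8, against 0.66, 0.71, 1.14 and 0.65 in good-donor pools 1 to 4. Each of the 3 highest pools was in Cy3, as was good-donor pool 4 with a level in the range of the Cy5 pools. Ratios were 0.72, 0.58, -0.42 and -0.23, positive where the poor-donor pool was in Cy3 and negative where it was in Cy5. The difference was 0.16 ± 0.57 (SD, n = 4; adjusted p = 0.830) and the dye term -0.49, so the p leaves out most of the spread over arrays. With mean in place of median spot intensity the AIF1 difference was 0.014. C1QB, a chain of complement C1q, had 2.20, 2.10, 1.64 and 0.98 in poor-donor pools 5 to 8, against 1.84, 1.51, 1.78 and 1.61 in good-donor pools 1 to 4. Its ratios changed sign in the same way, with 0.38, 0.60, -0.12 and -0.62. Opposite signs in the dye orientations were found for 4 of 24 genes, the other two being PTPRC and C1QC, and for 19.7% of all tested genes.

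The remaining macrophage genes moved little between pools, but all lay close to the negative controls, where a difference could be missed. The Fc receptor chain FCER1G, CYBB of the phagocyte oxidase and C1QC had levels between 0.10 and 0.62 in all pools. Their differences were -0.11 ± 0.15, -0.03 ± 0.24 and 0.01 ± 0.17 (SD, n = 4). FCER1G had -0.03 without array 1 and -0.19 without array 2, and -0.018 with mean in place of median spot intensity. C1QC had -0.0043 without array 1 and -0.0096 without array 3, CYBB had 0.03 without array 1 and 0.09 without array 3, and C1QB had -0.06 without array 3.

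CD3E was the gene with the smallest p of the 24. It encodes the epsilon chain of the CD3 complex, through which the T cell receptor signals. Its levels were 0.81, 0.81, 0.69 and 0.78 in poor-donor pools 5 to 8, against 1.20, 1.11, 1.73 and 0.86 in good-donor pools 1 to 4. All poor-donor pools lay below all good-donor pools, which held for 1 of 24 genes and for 1.70% of all tested genes, while the opposite order held for none of the 24 and for 1.00%. Within a dye, the poor-donor pools were lower by 0.42 in Cy5 and by 0.48 in Cy3. Arrays 1 to 4 gave ratios of -0.37, -0.29, -1.02 and -0.06, which average -0.44 ± 0.41 (SD, n = 4; interval -0.90 to 0.02; unadjusted p = 0.057, adjusted p = 0.830 by limma). The gap of good-donor pool 4 to the poor-donor pools was small, and the difference was -0.20 without array 3, against -0.68 without array 4. It was -0.20 with mean in place of median spot intensity and -0.61 with a normexp offset of 10.

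The other T cell genes did not show this order. CD3D, the delta chain of the same complex, had 0.44, 0.34, 0.31 and 0.30 in poor-donor pools 5 to 8, against 0.20, 0.31, 0.48 and 0.22 in good-donor pools 1 to 4, and was higher on 3 of 4 arrays. CD2, an adhesion receptor of T and natural killer cells, had 0.19, 0.07, 0.16 and 0.24, against 0.35, 0.23, 0.19 and 0.16. Both genes lay close to the negative controls, where a difference could be missed. Their differences were 0.06 ± 0.17 and -0.05 ± 0.12 (SD, n = 4; adjusted p = 0.942 and 0.933), and CD3D had -0.0035 without array 4. The second CD3D probe was above background in 1 poor-donor pool and in no good-donor pool. The test of whether CD3E differs from CD3D was not run.

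S100A9 and S100A8 form the calcium-binding dimer calprotectin. S100A9 had 1.31, 1.34, 0.63 and 0.80 in poor-donor pools 5 to 8, against 2.37, 1.5, 1.12 and 0.88 in good-donor pools 1 to 4, and S100A8 had 0.71, 1.06, 0.57 and 0.73, against 1.51, 0.95, 0.70 and 0.59. Good-donor pool 1 was the highest for both, and both overlapped between donors. In Cy5 poor donors were lower by 1.22 for S100A9 and 0.58 for S100A8, while in Cy3 they were higher, by 0.32 and 0.24. S100A9 was lower on all 4 arrays, with -1.04, -0.16, -0.47 and -0.06 and a mean of -0.43 ± 0.44 (SD, n = 4; adjusted p = 0.830). S100A8 had -0.16 ± 0.43 (adjusted p = 0.925). Without array 1 the differences were -0.21 and 0.07, and without array 2 they were -0.65 and -0.38. With mean in place of median spot intensity S100A9 had -0.19.

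Of the genes that granulosa cells can also express, CD44, the hyaluronan receptor, had 1.13, 0.99, 1.09 and 0.81 in poor-donor pools 5 to 8, against 1.48, 1.14, 1.27 and 0.86 in good-donor pools 1 to 4. The groups overlapped, and its ratio was below 0 on all 4 arrays without passing the test (mean -0.17 ± 0.13, SD, n = 4; adjusted p = 0.830). The pattern recognition receptor TLR2, which binds bacterial lipoproteins, had 0.58, 1.71, 0.80 and 0.69 in poor-donor pools 5 to 8, against 1.28, 0.76, 1.33 and 1.20 in good-donor pools 1 to 4. Poor-donor pool 6 was the highest, and the remaining poor-donor pools were at or below 0.80. Its difference was -0.18 ± 0.76 and that of TLR4, the lipopolysaccharide receptor, -0.05 ± 0.30 (adjusted p = 0.949 and 0.958). Without array 1 they were 0.23 and 0.05, and TLR2 had -0.59 without array 2.

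Leukocyte genes varied by pool in both donor groups. Compared only within a dye, where a probe's dye effect is shared, 14 of the 24 genes were highest in good-donor pool 3 among the Cy3 pools, against 21.4% of all tested genes, 8 in poor-donor pool 6, against 25.9%, and 2 in poor-donor pool 5. None was highest in good-donor pool 4, which was the lowest Cy3 pool for 15. Among the Cy5 pools 18 of 24 were highest in good-donor pool 1, against 30.7% of all tested genes. A range of more than 2-fold across the Cy3 pools was found for 7 of 24 genes, against 4.79% of all tested genes, and across the Cy5 pools for 3, against 5.92%. The mean level over the 24 genes was 1.02, 1.22, 0.72 and 0.73 in poor-donor pools 5 to 8, against 1.14, 0.77, 1.28 and 0.76 in good-donor pools 1 to 4. In a pool of cells, fewer leukocytes and less RNA per leukocyte cannot be told apart. Between poor and good donors, 20 of 24 genes were lower in Cy5, against 55.7% of all tested genes, with a median of -0.16, and 13 of 24 in Cy3, against 50.9%, with a median of -0.0038. The genes of a group do not vary independently, so these counts are descriptions.

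**Figure D3:**
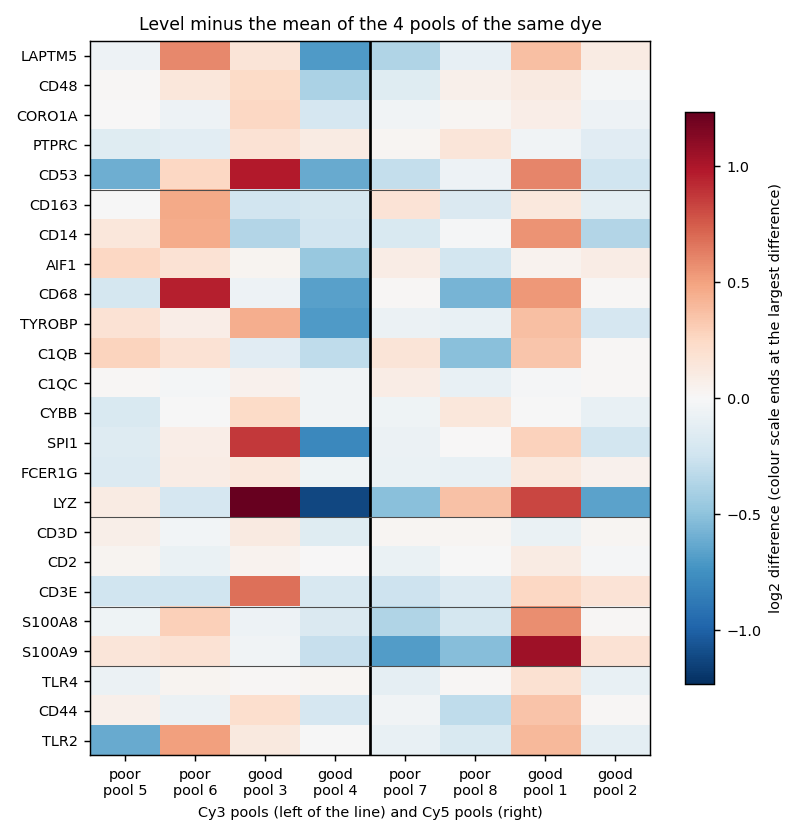
Level of each tested leukocyte gene in each pool minus the mean of the 4 pools of the same dye, in log2 units (red higher, blue lower), with Cy3 pools left of the black line and Cy5 pools right of it and, within each dye, poor-donor pools first. Red fields gather in good-donor pools 3 and 1 and in poor-donor pool 6, and blue fields in good-donor pool 4. CD14 and CD163 are blue in pool 3, and C1QB, CD68, S100A8 and S100A9 are also below their Cy3 mean there, by less.

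The pools high in leukocyte genes were not the same for each group of markers. Pan-leukocyte genes averaged 1.03, 1.34, 0.61 and 0.80 in poor-donor pools 5 to 8, against 1.01, 0.71, 1.55 and 0.82 in good-donor pools 1 to 4. Macrophage and monocyte genes averaged 1.23, 1.42, 0.88 and 0.80, against 1.21, 0.78, 1.41 and 0.79. The means of poor-donor pool 6 and good-donor pool 3 were alike, but single genes were not. In pools 6 and 3, CD68 had 3.19 and 2.17 and CD14 had 1.21 and 0.39. The order was the other way for LYZ, with 2.24 and 3.68, and for SPI1, with 1.44 and 2.23. T cell genes averaged 0.48, 0.41, 0.39 and 0.44, against 0.58, 0.55, 0.80 and 0.41. For these, poor-donor pool 6 was at the level of the other poor-donor pools and good-donor pool 3 was high. The T cell means rest mainly on CD3E, since CD3D and CD2 lay close to the negative controls. The neutrophil genes S100A8 and S100A9 averaged 1.01, 1.20, 0.60 and 0.76, against 1.94, 1.23, 0.91 and 0.74. In good-donor pool 3, where the means of the 3 T cell genes and of the pan-leukocyte genes were highest, the neutrophil genes averaged 0.91. Among the Cy3 pools this was below poor-donor pools 5 and 6 and above good-donor pool 4.

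Leukocyte genes outside the 32 gave no call either. Of 107 further genes in 5 lists, 89 had a probe and 43 were tested. None had an unadjusted p under 0.05, against 6.97% of all tested genes, and the median difference was -0.03, with 16 higher and 27 lower in poor donors. Among the Cy3 pools 12 of 43 were highest in pool 3 (27.9%, against 21.4% of all tested genes), and among the Cy5 pools 21 of 43 in pool 1 (48.8%, against 30.7%).

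The further genes of smallest p in each list, all uncalled, were as follows (log2 poor over good, mean ± SD over 4 arrays). Pan-leukocyte genes were EVI2B at -0.39 ± 0.60, ARHGDIB at -0.35 ± 0.85 and the phosphatase PTPN22 at -0.08 ± 0.14. ARHGDIB and EVI2B had their highest levels in good-donor pool 3, at 2.50 and 2.42, as CD53 did. In the macrophage list they were the chemokine receptor CX3CR1 at -0.08 ± 0.10, the inhibitory Fc receptor FCGR2B at -0.30 ± 0.63 and the complement receptor VSIG4 at 0.19 ± 0.50. The T and natural killer cell list had the transcription factor TBX21 at -0.10 ± 0.12, the protease GZMB at -0.12 ± 0.13 and CD27 at -0.07 ± 0.14. B cell genes were the complement receptor CR2 at 0.18 ± 0.34, CD72 at 0.22 ± 0.45 and CD22 at -0.18 ± 0.53. Granulocyte genes were the cathelicidin CATHL3 at 0.11 ± 0.06, the gelatinase MMP9 at 0.16 ± 0.24 and the lipocalin LCN2 at 0.16 ± 0.74. Of the 16 genes with a probe in the granulocyte list, 7 were tested. LTF, LCN2, CATHL5 and HDC, 4 in all, were above background in all 8 pools. MPO, ELANE and CXCR1 were among the genes not above background in all pools of either donor group and were not tested. Without array 3 ARHGDIB had 0.03, CD22 0.08, VSIG4 -0.05 and LCN2 -0.0061, without array 1 CD72 had -0.02 and LCN2 -0.10, and FCGR2B had 0.08 without array 2. Leaving out 1 array put EVI2B between -0.63 and -0.15, CR2 between 0.034 and 0.33, MMP9 between 0.063 and 0.25, PTPN22 between -0.14 and -0.023, CD27 between -0.11 and -0.027 and GZMB between -0.17 and -0.073. MMP9 and CATHL3 passed the filter through the poor donors alone, with 2 and 3 good-donor pools above background, and FCGR2B and CR2 through the good donors alone, with 3 poor-donor pools each.

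Markers of other cells moved with the leukocyte genes in part. The 7 tested red cell and platelet genes averaged 1.11, 1.03, 0.64 and 0.75 in poor-donor pools 5 to 8, against 0.86, 0.60, 1.07 and 0.71 in good-donor pools 1 to 4. The beta globin gene HBB was highest in good-donor pool 3, at 3.30, and poor-donor pool 5, at 2.88, whereas the alpha globin gene HBA was highest in poor-donor pool 6, at 2.96, and good-donor pool 1, at 2.69. The pattern of the mean rests mainly on these globin genes, which ranged 4.63-fold and 4.92-fold across the Cy3 pools. SLC4A1, AHSP, PPBP, GP9 and TUBB1 ranged by 1.30-fold or less. The 10 tested theca and stroma genes averaged 3.06, 3.45, 3.17 and 2.85 in poor-donor pools 5 to 8, against 3.30, 2.80, 2.35 and 2.70 in good-donor pools 1 to 4. Their mean was highest in pools 6 and 1, which were also high in leukocyte genes, and lowest in pool 3, which was high in leukocyte genes too. Among the 10, 5 were highest in pool 6 of the Cy3 pools and 6 in pool 1 of the Cy5 pools. INSL3 and LHCGR, 2 of the 10, were instead highest of the Cy3 pools in pool 3, at 1.01 and 1.29. LHCGR was close to the negative controls in poor-donor pool 5, at 0.04. Which cells in the pools gave the LHCGR signal was not tested. The 4 tested endothelial genes averaged 0.42, 0.73, 0.54 and 0.58 in poor donors, against 0.63, 0.67, 0.36 and 0.62 in good donors. This mean was highest in pool 6 and lowest in pool 3, but the low in pool 3 rested on KDR. KDR stood at 0.10 in pool 3 and 1.48 in pool 6. Among the Cy3 pools CDH5, TEK and CLDN5 were lowest in pool 5, at 0.18, 0.07 and 0.34. The 12 granulosa genes averaged 5.16 to 5.41 in poor donors and 5.16 to 5.45 in good donors. The steroidogenic theca enzyme gene CYP17A1 stood at 0.21 to 0.28 in poor donors and 0.22 to 0.29 in good donors. The part of these other cells in the leukocyte levels was not tested.

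**Figure D4:**
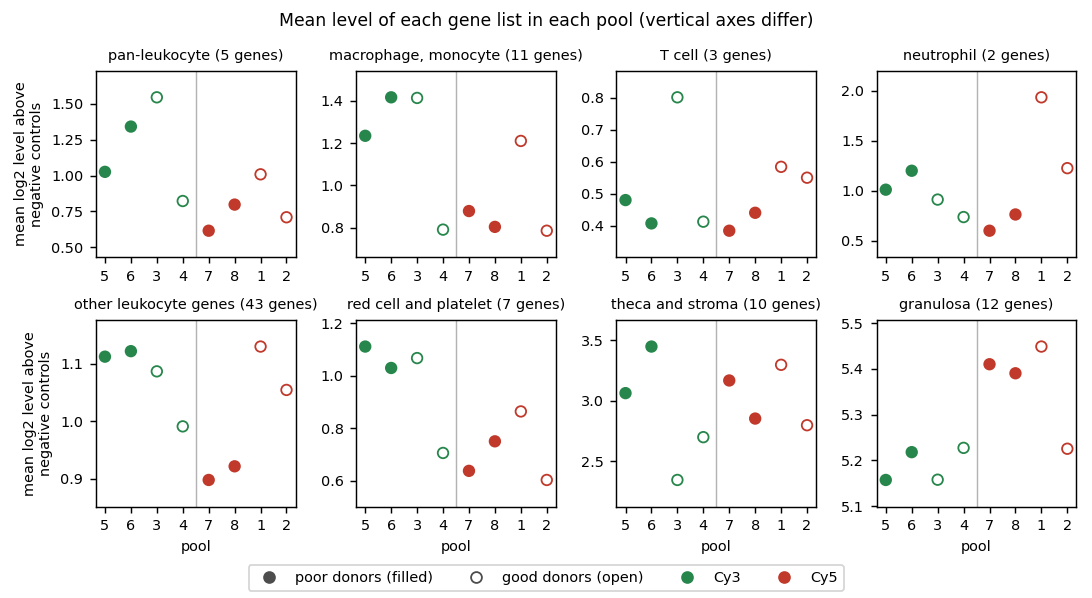
Mean level of 8 gene lists in each pool, as log2 above negative controls, with Cy3 pools left of the grey line and Cy5 pools right of it, poor-donor pools (filled) before good-donor pools (open); vertical axes differ between panels. Good-donor pool 3 is the highest Cy3 pool for the T cell and pan-leukocyte genes and the lowest for theca and stroma genes, and good-donor pool 1 is the highest Cy5 pool in all 8 panels.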

How the data were processed

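The deposited scanner files hold spot intensity in Cy3 and Cy5 before normalisation, per the file headers, and the authors' series matrix holds log2 ratios of unstated normalisation and direction. Over the tested probes its columns correlated with the poor over good ratios computed here at 0.993, 0.984, 0.989 and 0.986 on arrays 1 to 4, with medians of 0.00047, 0.00025, 0.0026 and -9.92e-05. RNA was amplified over 2 rounds and labelled, per the labels' protocols.

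In R 4.3.3 with limma 3.58.1, median spot intensities were background-corrected by normexp (offset 50) and normalised by loess within each array (span 0.3, control spots at weight 0). Ratios were turned to poor over good and fitted with a dye term over 4 arrays, which leaves 2 residual degrees of freedom, with Benjamini-Hochberg adjustment over 26181 probes that exceeded the negative controls by 2 SD in all 4 pools of a donor group. The fit was tested on simulated data. A gene was represented by its brightest tested probe. Levels used Aquantile scaling between arrays. Symbols came from the platform annotation, which names 21790 of 43794 probes, with 1524 symbols updated through RefSeq. The genome build was not given in the sources used here, so no coordinates are printed. The members and gene lists were chosen with earlier results of these data known. Values of every listed member above background in a donor group were described, and outside them the 3 genes of smallest unadjusted p in each leukocyte list. The number of arrays limits the precision. The 4 arrays share 1 slide. Alternatives changed the background correction, normalisation, filter, model, probe choice and arrays used.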

Additional observations from a re-analysis of the deposited data

Results flagged for a closer look

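Of 72 groups of 4 values examined, 5 held a value set apart from the other 3 (its gap to the nearest of them, over the group's range, passed Dixon's critical value), and chance flags about 1 in 20 such groups. PTPRC stood at 0.88 in poor-donor pool 8, against 0.73 to 0.75 in the other poor-donor pools. The CORO1A ratio was -0.41 on array 3, against 0.07 to 0.14 on the other arrays. TLR2 had a ratio of 0.95 on array 2, where the other arrays lay between -0.69 and -0.48. CD163 stood at 0.38 in good-donor pool 2, with 0.60 to 0.64 in the other good-donor pools. AIF1 stood at 1.14 in good-donor pool 3, with 0.65 to 0.71 in the other good-donor pools.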

How the results depend on the processing

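No gene of any kind passed the adjusted threshold under any alternative run. At an unadjusted p under 0.05 the count of leukocyte genes, 0 as reported, was 2 with local background subtracted (S100A9 and CD3E), 2 with a normexp offset of 10, 2 with the series matrix values, 2 with no dye term, 1 in the separate-channel fit and 3 with no filter on dim probes. With one array left out it ranged from 0 to 4. The T cell median was -0.44 where only probes above background in all 8 pools were used, because CD3E alone was left. Of 107 alternatives for the summary values and counts, 97 gave values close to those reported, and 37 of 539 for single genes changed sign. Mean in place of median spot intensity brought 23 of the 24 differences nearer to 0, 16 of them by more than 1.5 times. Under it C1QC had -0.0063, CD44 0.017 and CYBB 0.028, and LAPTM5 had -0.0056 after subtraction of the local background and -0.0038 on the authors' matrix ratios; the cause was not tested. Leaving out each array in turn turned the sign of these differences, whose lowest and highest values were: ARHGDIB -0.74 to 0.034, C1QB -0.065 to 0.18, C1QC -0.0096 to 0.035, CD14 -0.088 to 0.52, CD22 -0.45 to 0.085, CD3D -0.0035 to 0.12, CD48 -0.17 to 0.25, CD53 -0.80 to 0.12, CD68 -0.31 to 0.53, CD72 -0.024 to 0.47, CORO1A -0.15 to 0.11, CYBB -0.15 to 0.085, FCGR2B -0.69 to 0.081, LAPTM5 -0.24 to 0.33, LCN2 -0.10 to 0.42, LYZ -0.93 to 0.69, PTPRC -0.087 to 0.014, S100A8 -0.38 to 0.068, SPI1 -0.49 to 0.38, TLR2 -0.59 to 0.23, TLR4 -0.15 to 0.046, TYROBP -0.22 to 0.34, VSIG4 -0.053 to 0.43. The 21 genes above background in all 8 pools were 18 with 3 SD and 23 with mean intensity. In alternatives chosen after seeing the data, good-donor pool 3 was the highest Cy3 pool for 11 genes without scaling between arrays, against 14 as reported, and good-donor pool 1 the highest Cy5 pool for 14, against 18. The main fit used ratios within each array, so each poor-donor pool was already paired with 1 good-donor pool. Dim probes near the negative controls limit what could be detected.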

Other observations

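These genes of the wider leukocyte lists were picked after their values were seen, and none passed the test. LTF, the iron-binding lactoferrin of neutrophil granules and secretions, had 6.33, 5.25, 5.62 and 5.26 in poor-donor pools 5 to 8, against 7.59, 7.04, 3.21 and 6.19 in good-donor pools 1 to 4. Good-donor pool 3, highest for many leukocyte genes, was the lowest for LTF. CTSS, a lysosomal protease of antigen-presenting cells, had 2.50, 3.99, 1.70 and 1.78 in poor donors, against 2.62, 2.19, 2.53 and 1.75 in good donors. Its highest level was in poor-donor pool 6, as for CD68. LCK, the kinase that starts T cell receptor signalling, had ratios of -0.64, -0.62, 0.57 and 0.58 on arrays 1 to 4, so its sign followed the dye orientation.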
